A study of Homo sapiens with 48 samples.

Results

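Replication-dependent histone genes were taken as the genes whose symbols name a clustered H1, H2A, H2B, H3 or H4 gene, with pseudogenes left out. The pattern of the symbol chose 41 of the 14685 genes with deposited counts, and no measured value entered the choice. They are 3 H1, 11 H2A, 12 H2B, 7 H3 and 8 H4 genes. The symbol table used here holds 70 genes that fit the same pattern, of which 29 were not found among the genes with counts. All 48 libraries came from HEK293T, a human embryonic kidney line, labelled as wild type, that had been transfected with a plasmid for NCBP1 fused to Halo, so the controls carry the plasmid too. In the T-REX arm, cells received Ht-PreHNE(alkyne), a photocaged source of the lipid-derived electrophile hydroxynonenal (HNE) that binds Halo, and then light, which frees HNE beside NCBP1. The controls are light alone (labelled UV), probe alone (labelled Pre) and DMSO, the vehicle. RNA was taken 3, 6 or 12 h later, with 4 libraries for each of the 4 arms at each time, described as independent biological replicates. The study's methods list Ht-PreHNE together with light for the light-alone control, which as written does not set it apart from the T-REX arm, and what else differed is not given in the sources used here. Probe-alone cells got Ht-PreHNE and no light, and DMSO cells got neither. Each library is a mixture of transfected and other cells of 1 line, and total NCBP1 combines the plasmid with the endogenous gene.

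Replication-dependent histones are the proteins around which newly copied DNA is wrapped. H2A, H2B, H3 and H4 form the nucleosome core, and H1 binds the linker DNA between cores. Their genes are transcribed mainly in S phase, and most of their mRNAs end in a conserved stem-loop in place of a poly(A) tail. SLBP binds this stem-loop, the U7 snRNP directs the cut after it, and degradation follows when DNA synthesis stops. NCBP1 and NCBP2 make up the nuclear cap-binding complex, NCBP1 being the larger of them, and the complex has been linked to the 3′ end formation of these mRNAs. The libraries were made after depletion of ribosomal RNA, according to the study's methods, so transcripts without a poly(A) tail can be counted, although the labels name an mRNA kit.

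The stem-loop is printed here because it is what sets these mRNAs apart from others. It was searched in GENCODE 29 transcripts as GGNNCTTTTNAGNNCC, on the sense strand. It lay in the models of 19 of 41 histone genes (46.3%) and in 25 of 14517 other genes with a model (0.172%). Of the 41 models, 17 hold coding sequence alone and end before the stem-loop would come, so a model without these letters says nothing of the gene. Capitals mark the stem-loop in 5 members named below, with 5 bases on each side.
H2BC21: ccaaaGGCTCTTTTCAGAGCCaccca
H2BC5: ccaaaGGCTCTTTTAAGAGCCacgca
H2AC25: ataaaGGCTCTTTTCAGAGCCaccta
H4C2: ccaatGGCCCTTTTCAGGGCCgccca
H4C8: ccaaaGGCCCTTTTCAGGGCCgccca
H2BC21 and H2AC25 hold the same 16 bases, and so do H4C2 and H4C8. The models run on for 1729 bases after the stem-loop in H2BC21, 390 in H2AC25, 86 in H4C2 and 1655 in H4C8.

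Many H2A and H2B genes lie head to head and share the DNA between their start sites. In the members there were 6 such pairs, with 193 to 247 bases between the starts. The windows of 4 pairs are printed for comparison because a member of each was called lower under T-REX, from RefSeq promoters on GRCh38.p14, plus strand. Capitals mark the octamer ATTTGCAT, bound by POU2F1, and the TATA sequence TATAAA, on either strand, where overlapping matches run together.
H2BC21 and H2AC20: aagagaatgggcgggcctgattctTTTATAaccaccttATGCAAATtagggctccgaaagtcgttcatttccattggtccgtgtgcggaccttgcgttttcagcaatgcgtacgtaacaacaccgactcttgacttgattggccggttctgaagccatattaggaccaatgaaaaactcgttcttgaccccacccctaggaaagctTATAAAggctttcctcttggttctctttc
H2BC11 and H2AC11: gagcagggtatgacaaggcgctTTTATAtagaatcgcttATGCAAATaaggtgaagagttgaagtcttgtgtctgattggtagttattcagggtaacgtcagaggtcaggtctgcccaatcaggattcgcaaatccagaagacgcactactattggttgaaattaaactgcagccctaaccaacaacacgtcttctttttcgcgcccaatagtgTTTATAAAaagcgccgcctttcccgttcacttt
H2BC13 and H2AC13: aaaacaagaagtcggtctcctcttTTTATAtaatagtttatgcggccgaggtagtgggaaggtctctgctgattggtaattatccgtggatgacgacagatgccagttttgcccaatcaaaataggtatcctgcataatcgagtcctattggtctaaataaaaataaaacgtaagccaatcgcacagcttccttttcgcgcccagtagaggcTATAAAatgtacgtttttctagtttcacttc
H2AC25 and H2BC26: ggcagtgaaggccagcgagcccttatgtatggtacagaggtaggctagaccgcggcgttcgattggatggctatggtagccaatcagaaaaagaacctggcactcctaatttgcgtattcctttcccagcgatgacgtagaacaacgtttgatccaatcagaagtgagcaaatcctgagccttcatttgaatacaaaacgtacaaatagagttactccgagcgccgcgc
These windows are chr1:149886683-149886917, chr6:27132796-27133042, chr6:27807930-27808172 and chr1:228457874-228458102, and hold no more than the bases between the starts. The first pair of genes shares 1 octamer, and so does the second. The window of H2BC13 and H2AC13 holds TATAAA and not the octamer, while neither is written in that of H2AC25 and H2BC26. RefSeq held a promoter (250 bases before to 50 after the start) for 37 of 41 members. The octamer stood on either strand in 7 of 10 H2A and 8 of 12 H2B promoters, against 1.77% of all 35116 promoters. It was in 0 of 3 H1, 0 of 6 H3 and 0 of 6 H4 promoters. An octamer shared by a head-to-head pair was counted in the promoters of both genes. TATAAA was in 27 of 37 member promoters (73%) against 11.5% of all. CCAAT, the site of NF-Y, was in 31 of 37 (83.8%) against 34.6% of all, and in 0 of 6 H4 promoters.

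The histone genes took between 0.113% and 0.289% of the counts of a library, whose totals ran from 23952455 to 37099535. Every member was counted in every library, the lowest count being 15 for H3C7, and edgeR's filter on low counts removed none of them. Levels are in CPM, counts divided by library size after edgeR's trimmed mean (TMM) scaling. The summed level of the 41 genes lay between 1156 and 2955 CPM, with a median of 1730. H2B genes held on average 30.7% of it, H1 25.3%, H3 17.9%, H2A 15.1% and H4 10.97%. VIM, KRT8, KRT18, CDH2 and NEFM, 5 of the 7 listed markers of this line, were counted in all libraries, with VIM at 437 to 668 CPM. PAX2 and TERT, also on that list, were not found among the genes with counts. Of 9 markers of other cell types, ITGAM alone was in the tables, at 0.98 to 4.63 CPM.

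Per coding length, a few genes dominated. On the scale of mean CPM per kb of coding sequence over the 48 libraries, H3C2 (ENSG00000286522) stood at 562, H2BC21 (ENSG00000184678) at 519 and H1-2 (ENSG00000187837) at 515. Then came H4C4 at 265, H2AC20 at 240, H2BC12 at 180, H2BC4 at 174, H4C2 at 147, H2AC11 at 142 and H2BC11 at 133. The next members in order were H1-4 at 125, H2AC6 at 115 and H2BC17 at 112. At the lower end, H2AC21 stood at 4.82, H3C7 at 4.23 and H2AC8 at 4.09. The first 3 members are not separated beyond their spread, since over libraries H3C2 ran from 94.4 to 418 CPM and H2BC21 from 125 to 308 CPM. Together H1-2, H3C2 and H2BC21 made 17.96%, 12.5% and 10.7% of the summed level. Near-identical copies limit some of these values: 12 members share at least 1 window of 100 bases with another gene, and over 50% of windows were shared for H4C12 (100%), H3C12 (58.4%), H2AC13 (57.7%) and H3C13 (51.3%). How reads that fit several genes were counted is not given in the sources used here. The divisor is a limit too, since it leaves out bases beyond the coding sequence. The model of H2BC21 has 2194 bases, 381 of them coding, while that of H3C2 has 411, all coding. The order of the members may therefore differ with another measure of length.

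**Figure D1:**
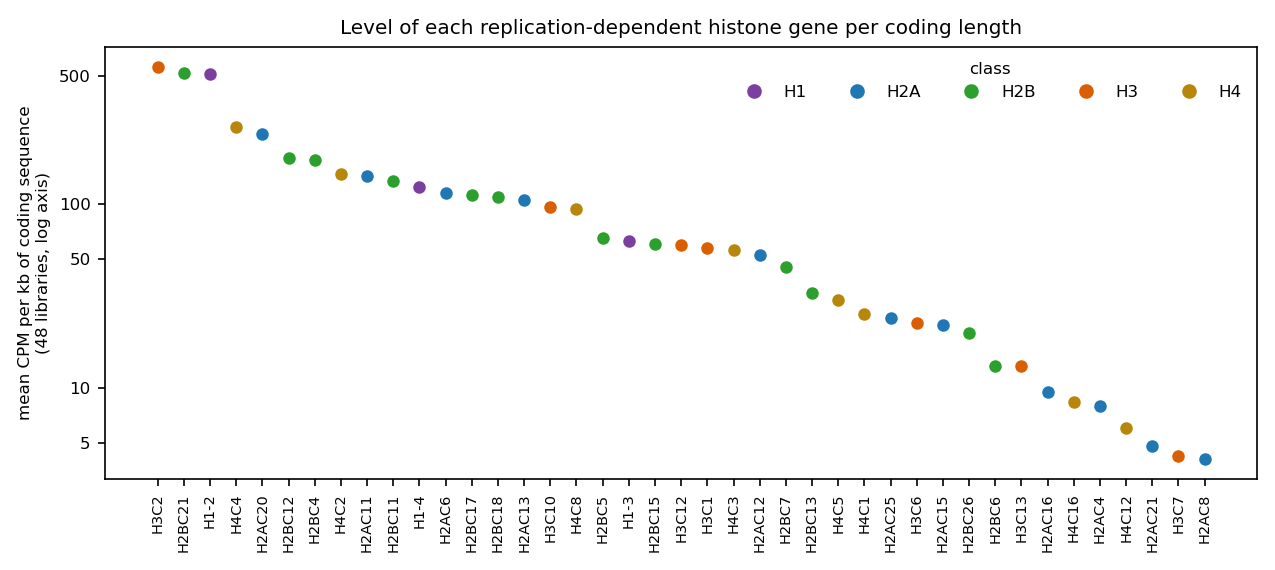
Mean CPM per kb of coding sequence over 48 libraries (log axis) for each of the 41 genes in order of level, with the class as colour. H3C2, H2BC21 and H1-2 lie between 515 and 562, and H2AC8 is lowest at 4.09.

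Some groups held libraries that stood apart in these genes. The summed level was 1156, 1631, 2955 and 2596 CPM in the 4 libraries of T-REX at 3 h and 1455, 2667, 2564 and 1498 CPM in those of light alone at 3 h. It was 2316, 1856, 2748 and 1697 CPM with DMSO at 6 h and 2556, 1723, 2101 and 1412 CPM with DMSO at 12 h. The highest library was 2.56 and 1.83 times the lowest in the first pair of groups and 1.62 and 1.81 times in the second, and at most 1.30 times in each of the other 8 groups. By contrast, it was 1225, 1260, 1427 and 1487 CPM under T-REX at 12 h and 1589, 1651, 1531 and 1487 CPM with light alone at 12 h. With probe alone it was 2064, 1679, 2090 and 1834 CPM at 3 h and 1526, 1610, 1854 and 1576 CPM at 12 h.

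**Figure D2:**
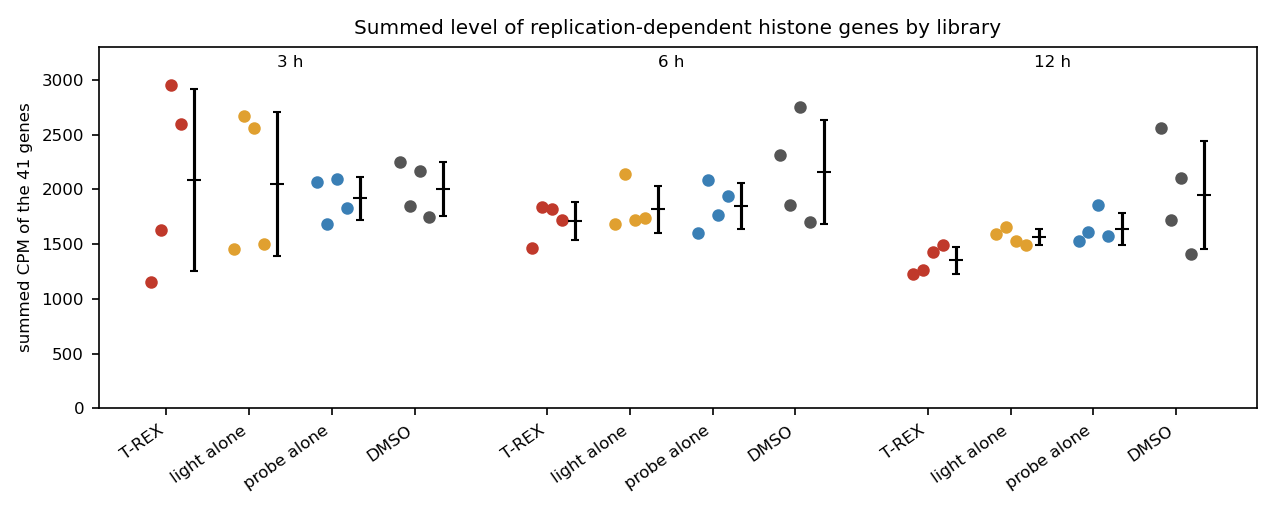
Summed CPM of the 41 genes in each library (points, replicates 1 to 4 from left to right within a group) with the group mean and SD (bar and whiskers, n = 4). T-REX and light alone at 3 h and DMSO at 6 and 12 h have the widest ranges, and T-REX at 12 h lies between 1225 and 1487.

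Histone genes varied more between replicates than genes at large, and in some groups most of them were highest in the same library. The median SD of log2(CPM + 0.5) within T-REX at 3 h was 0.76 over the members and 0.15 over all genes. It was 0.52 against 0.11 with light alone at 3 h, 0.41 against 0.12 with DMSO at 6 h and 0.43 against 0.17 with DMSO at 12 h, and between 0.15 and 0.22 for the members in the other 8 groups. Of the 41 members, 36 had their highest DMSO level at 6 h in replicate 3, 31 their highest DMSO level at 12 h in replicate 1, and 29 their highest T-REX level at 3 h in replicate 3. Other groups were more even, such as T-REX at 6 h, where 7, 5, 15 and 14 members were highest in replicates 1 to 4. The classes did not spread alike. Within T-REX at 3 h the highest library was 3.96 times the lowest for summed H3, 3.63 times for H2A, 2.63 times for H2B, 1.84 times for H1 and 1.75 times for H4. With light alone at 3 h the same ratios were 2.80 for H3, 3.39 for H2A, 1.61 for H2B, 1.35 for H1 and 1.06 for H4, whose 4 values lay between 191 and 201 CPM.

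The share of GC-rich genes was set beside these levels, since the members have a median GC content of 57.2% in their models against 47.2% for all genes, and a median length of 522 bases against 3449. A GC index was taken as the mean log2 CPM of the 1444 GC-richest genes minus that of the 1456 GC-poorest, members left out. It was -2.29, -1.90, -1.02 and -1.27 in the T-REX libraries of 3 h and -1.82, -1.33, -1.37 and -1.89 in those of light alone at 3 h, so the libraries high in histone mRNA were also high in this index. With DMSO it was -1.57, -1.75, -1.22 and -1.87 at 6 h and -1.31, -1.81, -2.12 and -1.77 at 12 h, where replicate 3 was high in histone mRNA and lowest in the index. RN7SL1, a short RNA without a poly(A) tail, stood at 1040, 1146, 2076 and 1000 CPM in the T-REX libraries of 3 h. It was at 826, 651, 651 and 1008 CPM with light alone at 3 h, lowest in the libraries high in histone mRNA. With DMSO it was at 916, 896, 1201 and 831 CPM at 6 h and 1039, 793, 616 and 883 CPM at 12 h. High RN7SL1 thus went with high histone mRNA in some groups and not in others. The part of library composition in these levels was not tested. In bulk RNA, fewer cells in S phase and less histone mRNA per cell cannot be told apart.

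**Figure D3:**
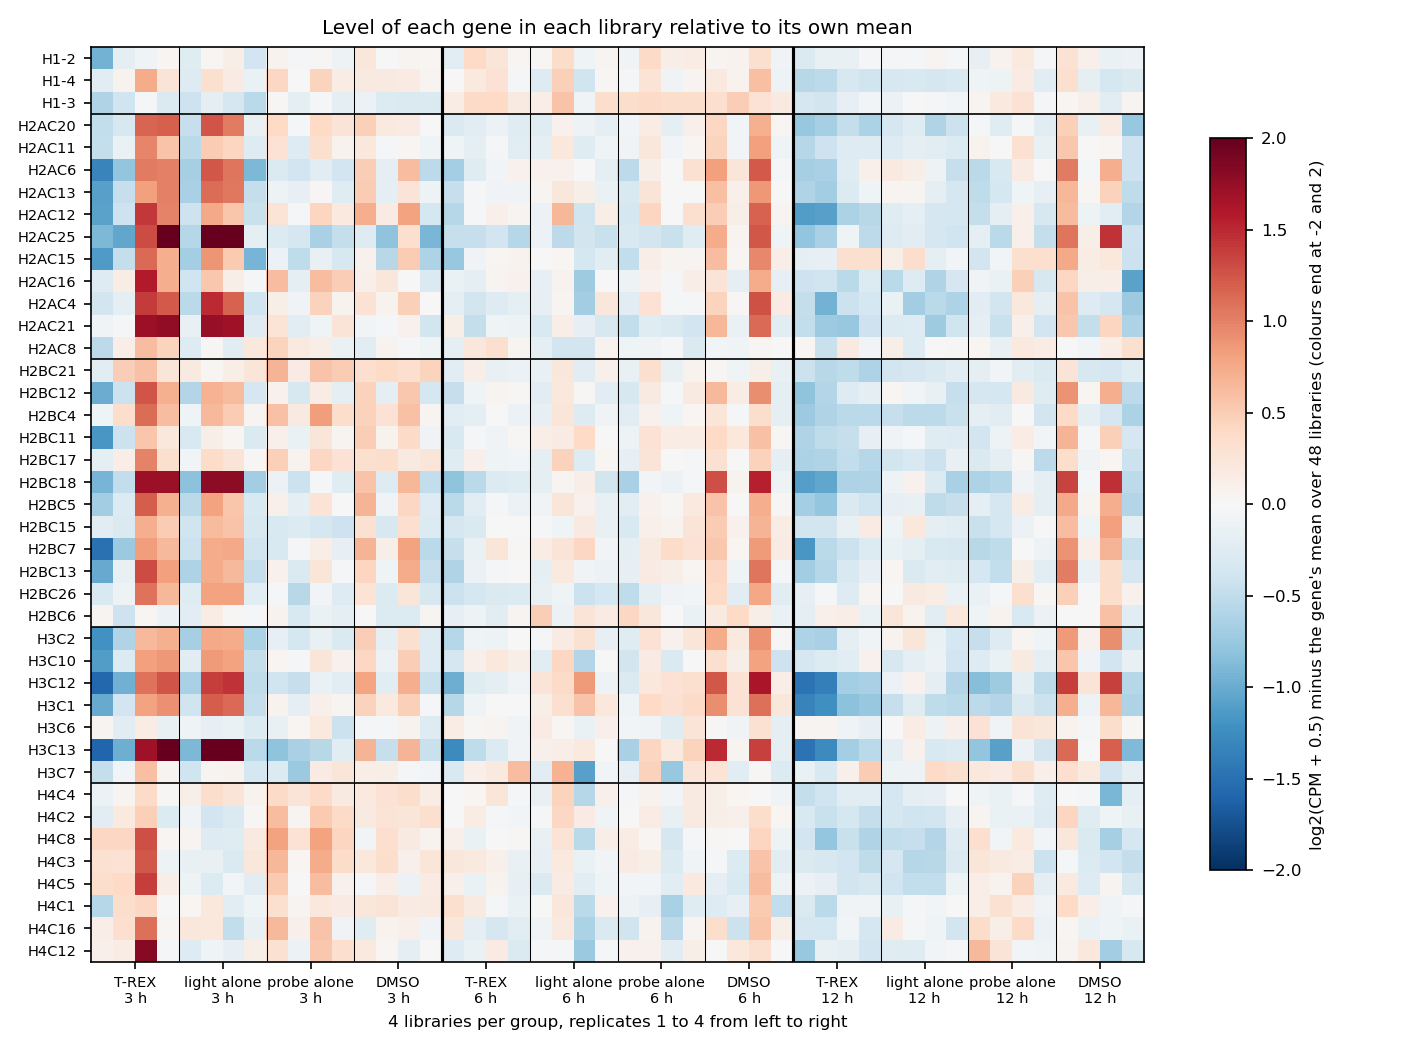
log2(CPM + 0.5) of each gene (rows, by class) in each of the 48 libraries (columns, by time and arm) minus the mean of that gene over all libraries, with colours ending at -2 and 2. Columns rather than groups stand out in T-REX and light alone at 3 h and in DMSO at 6 and 12 h, and H1-3 is raised in all groups of 6 h.

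The main question here is whether HNE delivery to NCBP1 moved these mRNAs, and the 12 h libraries held nearly all the calls. At 12 h, 13 of 41 members were called lower under T-REX than with DMSO and 0 higher. They are H2BC5, H2BC7, H2BC11, H2BC13, H2BC17, H2BC18 and H2BC21, H3C1, H3C12 and H3C13, H2AC12 and H2AC25, and H4C2. Against probe alone 2 were lower, H4C8 and H1-3, and against light alone 0 were called. By edgeR, at any time, 0 members passed with 1 sign in 2 or more of the 3 comparisons with controls. This count depends on the fit: at 12 h it was 14, all lower, with the 2 RUV factors that the authors deposited for each library as covariates (8.95% of all genes), 5 in fits of the 2 groups compared (2.6%), and 2 with DESeq2 (2.8%). It was 3 without DMSO replicate 1 and 1 without DMSO replicate 3 or 4 or T-REX replicate 4. At 3 h it was 10 with the RUV factors, 7 higher and 3 lower (14.4% of all genes), and 1 without T-REX replicate 3. For fits with a library left out, here and below, the share of all genes called is not given. Those counts are therefore not results about the members. The RUV factors were made by the authors to carry unwanted variation between libraries, and their part in these counts was not tested further. Their means were near 0 in each group, the first factor being at 0.0048 (SD 0.549) with DMSO at 12 h and 0.0103 (SD 0.485) under T-REX at 3 h. These fits use the same libraries, so the larger counts with the RUV factors are not separate evidence of a T-REX effect. A gene was called where its p from edgeR's quasi-likelihood F-test, adjusted by Benjamini and Hochberg's method over the 14685 genes, was at most 0.05. Of all genes, 10.9% were called between T-REX and DMSO at 12 h, 6.79% lower. The other 12 h backgrounds were 0.701% against probe alone, 0.504% lower, and 1.29% against light alone. Calls with 1 sign against 2 or more controls were made for 0.947% (3 h), 0.136% (6 h) and 1.4% (12 h) of genes.

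H3C1 (ENSG00000275714), an H3 gene, had the smallest adjusted p of the members against DMSO at 12 h. Its level was 8.34, 9.07, 12.2 and 12.7 CPM under T-REX at 12 h and 36.4, 20.3, 34.7 and 13.998 CPM with DMSO. Light alone gave 15.7, 18.3, 15.2 and 14.8 CPM, and probe alone 14.98, 14.3, 17.7 and 16.1 CPM. All 4 T-REX libraries lay below all 12 control libraries. The mean of 10.6 ± 2.19 CPM (SD, n = 4) against 26.3 ± 10.9 CPM with DMSO gave a log2 fold change of -1.32 (standard error 0.25, adjusted p = 0.00404, edgeR). Against light alone it was -0.60 (standard error 0.25, adjusted p = 0.319), which was not called.

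H2BC21 (ENSG00000184678), the leading H2B gene, was the other member with no overlap. It stood at 143, 131, 135 and 125 CPM under T-REX and at 230.3, 155, 153 and 163 CPM with DMSO at 12 h. Light alone gave 148, 153, 158 and 164 CPM, and probe alone 171, 187, 166 and 158 CPM. The fall from 175 ± 36.9 to 134 ± 7.56 CPM (SD, n = 4) was a log2 fold change of -0.39 (standard error 0.097, adjusted p = 0.0143, edgeR). H3C1 and H2BC21 were 2 of 41 members with all T-REX libraries below all 12 controls, as were 1.17% of all genes. Against a single control at 12 h, 7 members lay wholly below light alone (7.14% of all genes), 11 below probe alone (4.49%) and 6 below DMSO (7.52%), and 0 above any of them. The share of all genes wholly above a control is not given here.

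The other calls against DMSO included the largest falls, in genes with high and low DMSO libraries. H2BC18 (ENSG00000203814) stood at 16.9, 17.7, 23.9 and 23.96 CPM under T-REX and at 94.4, 35.9, 102 and 25.3 CPM with DMSO at 12 h. The groups did not overlap, and the DMSO libraries themselves covered a wider range than the gap between them and T-REX. The log2 fold change was -1.65 (standard error 0.40, adjusted p = 0.0211). H3C12 fell by 1.87 on the log2 scale (adjusted p = 0.0123, edgeR) and H3C13 by 1.79 (adjusted p = 0.0156), both genes with shared sequence. H4C2 (ENSG00000278705) was at 36.4, 32.8, 34.9 and 32.2 CPM under T-REX and at 60.5, 38.03, 42.5 and 40.7 CPM with DMSO. That difference, without overlap, was a log2 fold change of -0.42 (adjusted p = 0.0145). The remaining calls ran from a log2 fold change of -0.58 for H2BC17 to -1.32 for H2AC25, with H2BC7 at -1.0005, H2BC5 at -0.88, H2AC12 at -0.86, H2BC13 at -0.78 and H2BC11 at -0.69.

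These calls were also counted with the high DMSO libraries left out. Leaving out replicates 1 and 3, the highest, lowers the DMSO level by itself. It also keeps only replicates 2 and 4, and fewer libraries can lose calls without any change in level. Without DMSO replicates 1 and 3 of 12 h, an alternative chosen after the data were seen, 3 members were lower against DMSO, H3C1 and H2BC21, which are among the 13, and H1-3, and the median log2 fold change of the 41 genes was -0.21 in place of -0.46. Leaving out 1 library at a time gave 5 calls without T-REX replicate 1, 8 without T-REX replicate 2, 7 without DMSO replicate 3 and 26 without DMSO replicate 4. The share of all genes called in fits with libraries left out is not given here, so these counts are not results about the members. In a fit of the 8 T-REX and DMSO libraries alone, 2 of the 13 calls were kept, H3C1 and H2BC17, and 2.49% of all genes were called. H3C1 was called in every alternative run for this comparison.

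Seen as a group at 12 h, 40 of 41 members had a log2 fold change below 0 against DMSO, 38 against probe alone and 36 against light alone. The medians were -0.46, -0.36 and -0.18, and that of all genes against DMSO was 0.00. Without DMSO replicate 1 the median against DMSO was -0.26. At an unadjusted p of at most 0.05 the counts were 28, 16 and 6, all lower. In the same order, 26.9%, 11.1% and 12.9% of all genes had such a p, with 15%, 6.29% and 6.77% lower. The 3 comparisons share the T-REX libraries, so they do not count as separate evidence. By class, the calls against DMSO were 7 of 12 H2B (median -0.63), 3 of 7 H3 (-0.83), 2 of 11 H2A (-0.63), 1 of 8 H4 (-0.27) and 0 of 3 H1 (-0.22). H1-2, the most counted member, was at 268, 296, 296 and 322 CPM under T-REX and at 398, 351, 300 and 301 CPM with DMSO, which overlap. Genes with and without the stem-loop in their model had medians of -0.46 over 19 and -0.49 over 22, with 7 and 6 called. By model, 4 of 17 with coding sequence alone, 6 of 11 longer ones up to 1000 bases and 3 of 13 above 1000 bases were called.

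**Figure D4:**
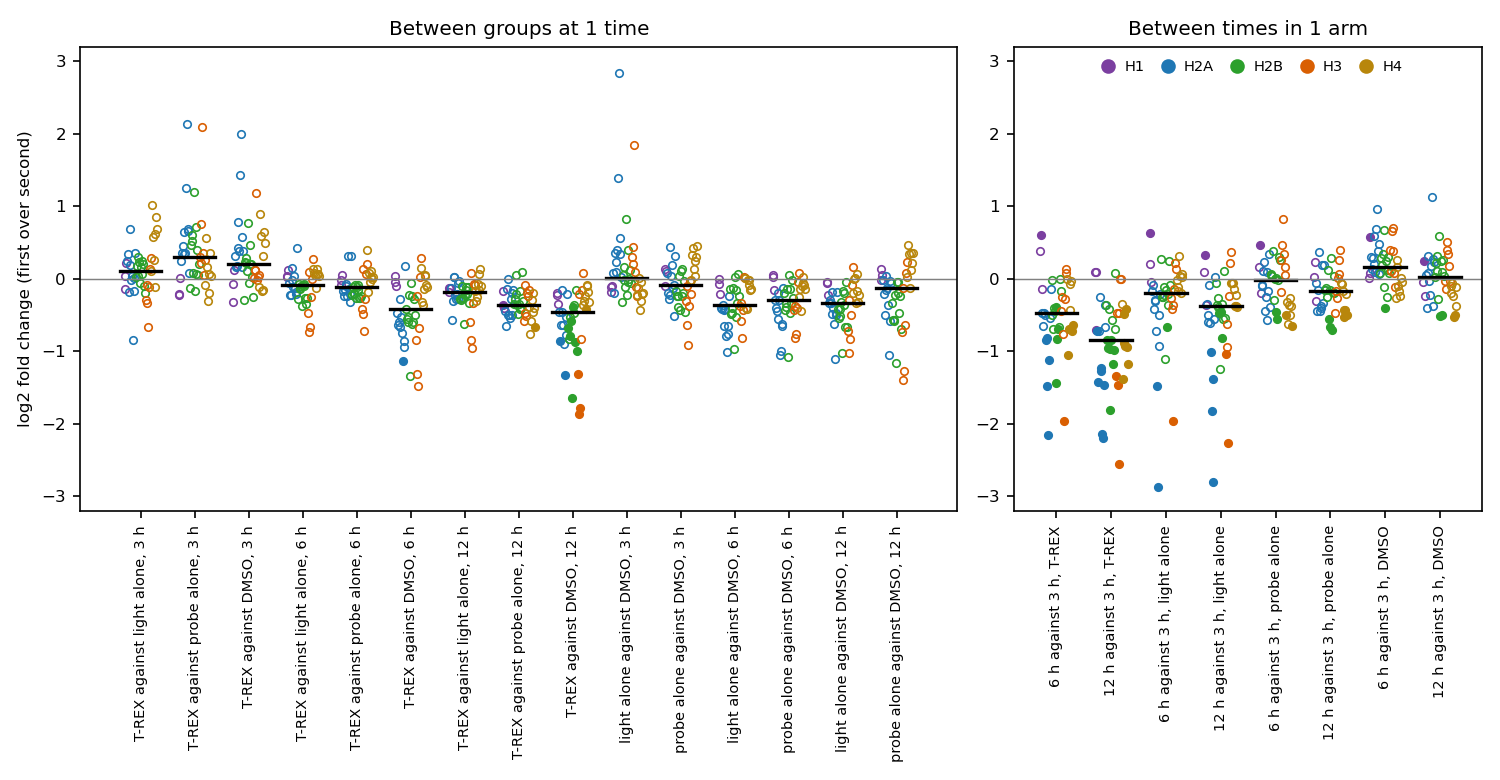
log2 fold change of each of the 41 genes (points, coloured by class, filled where called by edgeR's quasi-likelihood test) and their median (line) for comparisons between groups at 1 time (left) and between times in 1 arm (right). At 12 h the medians against light alone, probe alone and DMSO are -0.18, -0.36 and -0.46, and the 12 h against 3 h change under T-REX has a median of -0.84.

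Both calls against probe alone at 12 h were in other genes. H4C8 (ENSG00000158406), an H4 gene, was at 21.4, 16.3, 20.6 and 18.3 CPM under T-REX and at 35.6, 27.2, 32.1 and 26.97 CPM with probe alone. The groups did not overlap, and the log2 fold change was -0.67 (standard error 0.14, adjusted p = 0.0263, edgeR). With light alone H4C8 stood at 19.9, 20.2, 18.5 and 23.4 CPM, which overlapped T-REX. H1-3 (ENSG00000124575), a linker histone gene, was at 32.9, 32.1, 36.8 and 40.0 CPM under T-REX and at 42.9, 47.3, 50.8 and 40.96 CPM with probe alone, again without overlap. Its log2 fold change was -0.36 (standard error 0.082, adjusted p = 0.0301). H4C8 was not called without T-REX replicate 1, 2 or 4 or probe-alone replicate 1, 2 or 3, nor H1-3 without T-REX replicate 1, 2 or 3 or those same probe-alone libraries. The count of 2 became 5 with DESeq2 (1.75% of all genes), 12 in the fit of these 8 libraries (2.65%) and 1, H4C8, with the replicate number as a block. With splines on GC content and length, added after the data were seen, H1-3 was still called and H4C8 was not (log2 fold change -0.66).

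At 6 h a single member was called. H2AC25 (ENSG00000181218), an H2A gene outside the main clusters, was lower under T-REX than with DMSO. It stood at 4.40, 4.40, 4.70 and 4.05 CPM under T-REX and at 10.8, 6.56, 15.4 and 5.91 CPM with DMSO. The groups did not overlap, and the log2 fold change was -1.14 (standard error 0.22, adjusted p = 0.0198, edgeR). Light alone gave 5.74, 4.22, 4.78 and 4.45 CPM and probe alone 4.97, 4.73, 4.48 and 5.24 CPM, which overlap T-REX and lie below all 4 DMSO libraries. The call was lost without any 1 T-REX library and without DMSO replicate 1 or 3, while 6 members were called without DMSO replicate 2 and 11 without DMSO replicate 4. The share of all genes called in those fits is not given here. DESeq2 called 12 members lower in this comparison, and 1.25% of all genes. Of all genes, 0.415% were called against DMSO at 6 h, 0.238% lower, and 0.218% against light alone and 0.109% against probe alone, where 0 members were called by edgeR, by DESeq2 or by limma. For the light, probe and DMSO controls in turn, the medians of the 41 genes were -0.08, -0.12 and -0.41, and 3, 1 and 21 members had an unadjusted p of at most 0.05, as did 11.7%, 6.56% and 12.4% of all genes. Without light-alone replicate 2 the first median was 0.015.

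At 3 h no member was called by edgeR against any control, and the levels leaned the other way. For the light, probe and DMSO controls in turn, the medians were 0.11, 0.31 and 0.20, with 27, 34 and 32 of 41 members above 0. The counts at an unadjusted p of at most 0.05 were 5, 1 and 4, where 14.8%, 18% and 21.9% of all genes had such a p. DESeq2 called 0, 0 and 1 (1.77%, 4.24% and 8.17% of all genes), and limma 0 in each. By edgeR, 0.197%, 1.05% and 5.99% of all genes were called. The 5 members against light alone were all H4 genes, whose class median was 0.60. H4C8 was at 37.5, 37.6, 69.5 and 29.02 CPM under T-REX and at 29.2, 23.4, 23.6 and 31.8 CPM with light alone at 3 h, and the groups overlap. Without T-REX replicate 3 the medians were -0.17, -0.02 and -0.05, and 0, 2 and 1 members were called.

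H2AC25 varied widely between the libraries of 3 h. It stood at 3.11, 2.79, 16.2 and 56.9 CPM under T-REX and at 4.04, 72.8, 58.0 and 5.46 CPM with light alone. Probe alone gave 5.13, 4.85, 3.83 and 4.35 CPM, and DMSO 5.14, 3.37, 8.09 and 3.09 CPM. A pair of libraries under T-REX and another with light alone were thus far above the rest, and the fitted differences were not called: 2.005 on the log2 scale for T-REX against DMSO had an adjusted p of 0.304 (edgeR). H2BC26, whose start lies 229 bases from that of H2AC25, covered 5.81 to 16.002 CPM under T-REX and 6.08 to 13.1 CPM with light alone. H2BC18 stood at 18.99, 26.1, 121 and 123.2 CPM under T-REX and 20.6, 129, 128 and 22.6 CPM with light alone.

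Between controls, the edgeR test called 0 members at any time. Light alone against DMSO had 3, 15 and 13 members at an unadjusted p of at most 0.05 at 3, 6 and 12 h, and medians of 0.01, -0.37 and -0.33. Probe alone against DMSO had 0, 13 and 12, and medians of -0.09, -0.29 and -0.13. Light alone against probe alone had 8, 0 and 6, and medians of 0.00, -0.03 and -0.09. In the same order, the shares of all genes with such a p were 7.78%, 14.4% and 10.4%, then 5.11%, 8.21% and 23.3%, then 14%, 8.42% and 12.6%. The medians against DMSO changed when a high DMSO library was left out, a choice that lowers the DMSO level by itself. Without DMSO replicate 1 of 12 h they were -0.15 for light alone and 0.063 for probe alone, and without DMSO replicate 3 of 6 h -0.16 and -0.084. At 3 h the medians changed sign with the library left out, from -0.13 to 0.19 for light alone against DMSO, from -0.13 to 0.021 for probe alone against DMSO and from -0.10 to 0.17 between light and probe alone, and at 6 h the last ran from -0.11 to 0.028. H2BC18, for example, was at 34.2, 38.8, 30.3 and 23.2 CPM with light alone at 12 h, which overlapped the low DMSO libraries and not the high ones. Of all genes, 0.00681% were called between light alone and DMSO at 3 h and at 6 h, and 0.0136% at 12 h. For probe alone against DMSO the shares were 0.00681%, 0.0272% and 5.11%, and for light alone against probe alone 0.232%, 0.0613% and 0.415%. DESeq2 called, for light alone against probe alone, 1 member at 3 h (1.63% of all genes) and 3 at 12 h (1.91%). It called 1 between light alone and DMSO at 6 h (0.906%), and 1 and 4 between probe alone and DMSO at 6 and 12 h (0.184% and 9.01%), while limma called 0 in all 9 comparisons. Leaving out single libraries also gave calls, and the share of all genes called in those fits is not given here. Without DMSO replicate 4 of 12 h, 14 members were called for probe alone and 6 for light alone, and without DMSO replicate 4 of 6 h 1 for each. Probe alone against DMSO at 12 h had 2 without DMSO replicate 1 and 1 without DMSO replicate 2 or probe-alone replicate 4, and without the last, light alone against probe alone had 2. With the RUV factors, 13 members were lower with light alone than with DMSO at 6 h (7.07% of all genes) and 11 at 12 h (4.28%).

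Some members were also called between times in every arm, with the largest counts under T-REX. From 3 to 12 h under T-REX, 25 members were lower and 0 higher, with a median log2 fold change of -0.84, while 41.7% of all genes were called, 20.6% lower. From 3 to 6 h, 14 were lower and H1-3 higher, with a median of -0.48 and 23.3% of all genes called, 9.8% lower. H2BC21 fell from 167, 273, 289 and 229 CPM at 3 h to 164, 211, 175 and 178 CPM at 6 h and to the 12 h values above, a log2 fold change of -0.84 from 3 to 12 h (adjusted p = 2.48e-06, edgeR). H4C8 fell by 1.18 on the log2 scale over the same time (adjusted p = 7.4e-06). By class, 7 of 8 H4, 7 of 12 H2B, 7 of 11 H2A, 3 of 7 H3 and 1 of 3 H1 genes were lower at 12 h than at 3 h.

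Leaving out the highest libraries of a group lowers its level by itself. These counts under T-REX were also taken without 3 h replicates 3 and 4, the highest T-REX libraries of 3 h in summed level. Without both, an alternative added after the data were seen, 7 members were lower at 12 h than at 3 h (median -0.054), namely H4C2, H4C3, H4C5, H4C8, H2BC4, H2BC17 and H2BC21. At 6 h 3 were then higher, H1-2, H1-3 and H2BC11, and 0 lower (median 0.19). Without replicate 3 of 3 h alone, 16 members were called at 12 h (median -0.50) and 3 at 6 h (median -0.19). The calls at 6 h numbered 9, 8 and 9 without T-REX replicate 2, 3 or 4 of 6 h. In fits of the 8 libraries compared, 12 were called at 12 h (33.9% of all genes) and 1 at 6 h (13.2%). Time and the handling of each collection cannot be told apart.

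Members were called between times in the control arms too, and the arms' counts were not compared by a test. In each control arm, at 6 h and at 12 h, a smaller share of the members than of all genes was called. Light alone had 1 higher and 4 lower at 6 h (25.3% of all genes called) and 1 higher and 10 lower at 12 h (39.4%), with medians of -0.20 and -0.38. Without light-alone replicate 2 of 3 h, 2 members were called at 6 h (median -0.042) and 5 at 12 h. The calls at 6 h also numbered 2 without replicate 3 of 3 h, 8 without replicate 1 or 4 of 3 h and 3 without replicate 1 or 3 of 6 h. Probe alone had 1 higher and 4 lower at 6 h (21.5%) and 0 higher and 6 lower at 12 h (42.3%), with medians of -0.02 and -0.16, the first running from -0.090 to 0.052 over left-out libraries. Its 5 calls at 6 h became 2 without replicate 1 or 3 of 3 h or replicate 3 of 6 h and 3 without replicate 4 of 6 h. DMSO had 1 higher and 1 lower at 6 h (16%) and 1 higher and 4 lower at 12 h (38.8%), with medians of 0.16 and 0.02. Without DMSO replicate 3 of 6 h the first was -0.018, and without DMSO replicate 1 of 12 h the second was -0.16. H2BC21 was the 1 lower with DMSO at 6 h, and with DMSO at 12 h H2BC21, H2BC4, H4C3 and H4C4 were lower and H1-3 higher. H2BC21 with DMSO stood at 244, 253, 243 and 263 CPM at 3 h, 196, 182, 209 and 174 CPM at 6 h and 230.3, 155, 153 and 163 CPM at 12 h. The libraries of 6 and 12 h were all below those of 3 h, and the log2 fold change from 3 to 12 h was -0.52 (adjusted p = 0.00169). H2BC21 was lower at 12 h than at 3 h in all 4 arms, and that call with DMSO held without any 1 library of DMSO at those times. The 5 calls with DMSO at 12 h became 3 without replicate 2, 3 or 4 of 3 h or replicate 3 of 12 h and 2 without replicate 2 or 4 of 12 h. The 2 at 6 h became 1 without replicate 2 or 4 of 3 h or replicate 1, 2 or 4 of 6 h. The calls of H1-3, H2BC4 and H4C3 with DMSO were each lost without some single libraries, 6, 5 and 5 of 8.

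With all libraries in the fit, H1-3 was the 1 member called higher between times in any arm. It stood at 27.2, 31.4, 40.1 and 33.8 CPM under T-REX at 3 h and at 46.1, 54.1, 54.6 and 47.2 CPM at 6 h. With DMSO it was at 37.99, 34.1, 33.7 and 33.7 CPM at 3 h and at 52.6, 58.5, 50.8 and 46.9 CPM at 6 h. The 3 h and 6 h libraries did not overlap in either arm, and at 12 h H1-3 lay between 32.1 and 50.8 CPM over the 4 arms. It was called higher at 6 h than at 3 h in all 4 arms, with log2 fold changes of 0.61 under T-REX (adjusted p = 1.09e-05), 0.63 for light alone, 0.47 for probe alone and 0.58 for DMSO. H1-2, of the same class, was at 169, 289, 312 and 335 CPM under T-REX at 3 h and at 284, 432, 386 and 336 CPM at 6 h, which overlap.

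Whether the T-REX effect itself differed between times was tested as T-REX minus the mean of the 3 controls, in 1 fit of 48 libraries. By edgeR's quasi-likelihood test 0 members were called for 6 h against 3 h, 12 h against 3 h or 12 h against 6 h, where 0%, 0.116% and 0% of all genes were called. The medians were -0.49, -0.53 and -0.19, with 35, 39 and 35 of 41 members below 0, and 7, 18 and 1 members had an unadjusted p of at most 0.05, as did 7.47%, 11% and 2.96% of all genes. DESeq2 also called 0 members in each. The smallest adjusted p was 0.107, for H4C12 at 12 h against 3 h (log2 difference -1.28), a gene whose sequence is fully shared with another. Without T-REX replicates 3 and 4 of 3 h the medians for 6 h and 12 h against 3 h were 0.37 and 0.13, and without replicate 3 alone -0.17 and -0.28. For 12 h against 3 h, 2 members were called without T-REX replicate 4 of 3 h and 1 without replicate 1 or 2, and 20 with the deposited RUV factors as covariates (6.99% of all genes), where 6 h against 3 h had 4 (2.61%).

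Genes that make or degrade histone mRNA were counted against the same background, 10.9% of all genes called and 6.79% lower against DMSO at 12 h. The lists hold few genes, so a count of 1 to 3 called is not a result about a list. Of 14 genes of histone gene transcription, 3 fell below their DMSO level in the T-REX arm at 12 h. NPAT, the S phase coactivator of histone genes, had a log2 fold change of -0.19 (adjusted p = 0.0289, edgeR). CCNE2 and CDK2, which form the kinase that activates NPAT, were the others, CDK2 was also lower against DMSO at 3 h, and CASP8AP2 was at 0.00 (adjusted p = 0.997). NFYA, a subunit of the CCAAT-binding factor, was lower at 3 h against probe alone (-0.33, adjusted p = 0.0029) and DMSO (-0.31, adjusted p = 0.00132). Of 22 genes of 3′ end processing, SLBP (-0.27, adjusted p = 0.0372) and SNRPD3 were lower and CPSF4 higher against DMSO at 12 h. SNRPD3, a core protein of the spliceosomal snRNPs and of the U7 snRNP, was lower against light alone (-0.26), probe alone (-0.22) and DMSO (-0.29) at 12 h. LSM10 and LSM11, the proteins particular to the U7 snRNP, were at -0.24 and -0.07 against DMSO at 12 h and were not called. Of 22 genes of histone mRNA decay, LSM1, LSM3 and LSM5, of the ring that binds the tailed end, were lower against DMSO at 12 h, DCP2 was lower against DMSO at 3 h, and ERI1 (-0.01) and UPF1 (0.16) at 12 h were not called.

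Of 11 genes of the cap-binding complex and its partners, NCBP1 was the only one called under T-REX, higher against DMSO at 3 h (0.50) and 12 h (0.73) and against light alone at 6 h (0.80), with plasmid and endogenous transcripts counted together. NCBP1 also differed between controls. At 12 h probe alone was called above DMSO for NCBP1, and at 6 h light alone was called below probe alone. At 12 h against DMSO, NCBP2 was at -0.15 (adjusted p = 0.211), SRRT at 0.11 and CTIF, which joins the cap-binding complex to SLBP, at 0.19, none of them called. Of 12 replication-independent histone genes 11 were in the tables, and H3-3A (-0.26), H3-3B (-0.16) and H2AZ2 (-0.26) were lower against DMSO at 12 h, while MACROH2A2 was higher against DMSO at 3 h. H2AX, whose mRNA can also end in the stem-loop, was at -0.57 (adjusted p = 0.0506). Of 17 histone chaperones, SUPT16H and ANP32E were lower there, and at that time ANP32E was also lower for probe alone against DMSO. Of 42 genes of S phase and DNA replication, 6 were lower and 1, LIG1, higher against DMSO at 12 h, with a median of -0.04, beside the 6.79% of all genes called lower. Against at least 2 of 3 controls, CCNA2 was lower at 3 h (-0.25 against probe alone and DMSO) and MCM6 and E2F8 at 12 h. MCM6 was at -0.24 against probe alone and -0.19 against DMSO, and E2F8 at -0.26 against light alone and -0.31 against DMSO. E2F8 and LIG1 were also called between probe alone and DMSO at 12 h. Among the 3 noncoding RNAs in the tables of 13 listed, MALAT1 was higher under T-REX at 12 h against light alone and DMSO (0.26 in each), and RN7SL1 and NEAT1 were not called. For probe alone against DMSO at 12 h, MALAT1 and RN7SL1 were also called higher. CDH2 was the 1 marker of the line called, lower against DMSO at 3 and 12 h.

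Values of both genes of each printed pair are set side by side. H2BC21 and H2AC20 were at -0.39 and -0.63 for T-REX against DMSO at 12 h, with adjusted p-values of 0.0143 and 0.0548 from edgeR. H2BC11 and H2AC11 were at -0.69 and -0.46 (adjusted p = 0.0333 and 0.059). H2BC13 and H2AC13, the latter with shared sequence, were at -0.78 and -0.63 (adjusted p = 0.0478 and 0.0829). H2AC25 and H2BC26 were at -1.32 and -0.36 (adjusted p = 0.02 and 0.0934). In each pair 1 gene passed the threshold and the other did not, and the difference within a pair was not tested. H2BC11 stood at 32.4, 34.8, 35.9 and 44.0 CPM under T-REX and at 79.7, 48.8, 69.2 and 39.1 CPM with DMSO at 12 h, which overlap by 1 library on each side.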

How the data were processed

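RNA from 48 HEK293T libraries was sequenced after depletion of ribosomal RNA. The authors deposited raw read counts per gene for each time. They also deposited log2 CPM values, used here for the limma alternative, and RUV scores, 2 factors of unwanted variation for each library, used here as covariates in 1 alternative. A table of values already adjusted with these factors was not used. The labels name bcl2fastq, and the study's reporting summary names cutadapt, TopHat and Cufflinks. Which tool made the counts, the genome build, the annotation and the use of strand are not given in the sources used here. Library totals ran from 23952455 to 37099535.

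Counts were fitted with edgeR 4.0.16 (R 4.3.3; TMM scaling, filterByExpr, robust quasi-likelihood fits). The 16 libraries of a time were fitted together for comparisons between arms, and all 48 for comparisons between times. P-values were adjusted by Benjamini-Hochberg over the 14685 genes of each comparison, and genes at or below 0.05 were called. The filter removed no gene. Alternatives used DESeq2 1.42.0, limma 3.58.1, RLE size factors, no filter, the replicate number as a block, RUV factors, fits of the 2 groups compared, splines on GC and length, and left-out libraries. The fits were tested on simulated counts drawn gene by gene, with the same spread in all groups. That test does not cover genes that move together in single libraries or groups of unlike spread, as seen in the members. Replicates of a group differed by more than sampling noise in all 72 pairs (chi-square per degree of freedom 3.15 to 46.5), so none was counted as a duplicate.

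Members named are the 3 highest of each class, every member called between T-REX and a control, and the 3 in each direction with the largest change with DMSO from 3 to 12 h. Members of special range or shown for an example were named after their values were seen. The members and gene lists were chosen with earlier results of these data known. Lengths, GC content and stem-loops came from GENCODE 29 and promoters from RefSeq on GRCh38.p14, whose builds may differ from that of the counts.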

Additional observations from a re-analysis of the deposited data

Results flagged for a closer look

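Within groups of 4, a single library stood far from the others by Dixon's ratio in 4 of the 132 groups of values tested, where chance gives about 1 in 20. The summed level of the members was 2137 CPM in replicate 2 of light alone at 6 h and 1681, 1716 and 1737 CPM in the others. H1-3 stood at 37.99 CPM in replicate 1 of DMSO at 3 h, against 33.7, 33.7 and 34.1 CPM. H2BC18 stood at 23.3 CPM in replicate 1 of probe alone at 6 h, against 33.8, 35.3 and 35.9 CPM. H2BC21 stood at 230.3 CPM in replicate 1 of DMSO at 12 h, against 153, 155 and 163 CPM, and was still called lower under T-REX without that library.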

How the results depend on the processing

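Values here are numbers of members called unless said otherwise. Most stand without the share of all genes called in the same fit, so they are not results about the members. With RUV factors, 14.4% of all genes met at least 2 controls at 3 h and 8.95% at 12 h. Without these factors the shares were 0.947% and 1.4%. RLE size factors and the fits without a filter kept every count within 1.5 times. Several medians near 0 changed sign with a left-out library, as given above. With RUV factors as covariates, T-REX had 8 (light alone), 12 (probe alone) and 13 (DMSO) at 3 h, 1 against light alone and 22 against DMSO at 6 h, and 4, 15 and 28 at 12 h. Light alone against DMSO then had 7, 13 and 11 at 3, 6 and 12 h, probe alone against DMSO 2, 6 and 12, light alone against probe alone 15 at 3 h and 6 at 12 h, and the T-REX effect 4 and 20 for 6 and 12 h against 3 h. At least 2 of 3 controls were met by 10, 1 and 14. With DESeq2, T-REX against DMSO had 1, 12 and 20 and against probe alone at 12 h 5, the controls had 1, 1, 1, 4 and 3 as given above, and 2 met at least 2 controls at 12 h. With the GC and length correction, added after the data were seen, T-REX had 2 against probe alone and 1 against DMSO at 3 h, 3 and 23 against DMSO at 6 and 12 h, and at least 2 controls were met by 1 at 3 h and 2 at 12 h. It gave 1 for light alone against DMSO at 6 h, 2 for probe alone against DMSO and 2 for light alone against probe alone at 12 h, and 10 for probe alone from 3 to 12 h. In fits of the 2 groups compared, T-REX had 0 against DMSO at 6 h and 8 (light alone), 12 (probe alone) and 2 (DMSO) at 12 h, light alone against probe alone 7, and 5 met at least 2 controls. The same fits gave 1 and 12 for T-REX at 6 and 12 h against 3 h, 1 for light alone at 6 h, and 15 and 11 for probe alone. Without both high DMSO libraries of 12 h, T-REX had 3 and probe alone 1. Without both high T-REX libraries of 3 h, 6 h against 3 h had 3 (median log2 fold change 0.19), 12 h against 3 h 7 (median -0.054), and the T-REX effect medians of 0.37 and 0.13. The cause of these changes was not tested.

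With the replicate number as a block, T-REX against probe alone at 12 h had 1, probe alone against DMSO 1, and 12 of 13 calls against DMSO were kept. No other count moved by over 1.5 times. Deviations of libraries with the same number correlated between -0.49 and 0.49, so the numbers were not taken to pair libraries.

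Leaving out single libraries gave 0 to 2 against probe alone and 0 to 1 against DMSO for T-REX at 3 h, 0 to 11 against DMSO at 6 h, and 0 to 3 against probe alone and 5 to 26 against DMSO at 12 h. Light alone and probe alone against DMSO each had 0 to 1 at 6 h, and 0 to 6 and 0 to 14 at 12 h, with 0 to 2 between them. From 3 h, T-REX had 3 to 20 at 6 h and 16 to 32 at 12 h, light alone 2 to 8 and 5 to 13, probe alone 2 to 7 at 6 h, DMSO 1 to 3 and 2 to 6, and the T-REX effect 0 to 2 at 12 h. At least 2 controls were met by 0 to 1 at 3 h and 0 to 3 at 12 h.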
